A study of Homo sapiens with 6 samples.

Results

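The genes described here are the kinesin motors, 41 of the 18417 genes measured on arrays of RPMI 8226, an established human multiple myeloma line that grows from malignant plasma cells. They were chosen by symbol alone: every probe set whose only annotated gene was a KIF gene or KIFC1, KIFC2 or KIFC3, with the brightest probe set over the 6 arrays kept for each gene. Cells received no dose (0 Gy, 3 arrays) or 6 Gy of carbon ions (3 arrays), and total RNA was taken 1 day later from cells of both groups, which shared the same line and culture medium. The labels number the samples within each dose without saying whether they were separate cultures, so a p-value here is set by how far these samples scatter, and that scatter may be purely technical. The labels name no genotype, transgene or drug that differed between the groups. KIF4B was represented only by a probe set shared with its close copy KIF4A and was therefore no member.

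Kinesins are motor proteins that bind microtubules and use ATP to walk along them or to take their ends apart. In dividing cells a subset builds the bipolar spindle, moves chromosomes and completes cytokinesis, and their genes are transcribed mostly in G2 phase and mitosis. Other kinesins carry vesicles, organelles and RNA along the microtubules of cells that need not divide, and a smaller number serve cilia. KIF11, the motor that pushes spindle poles apart, has been a drug target in myeloma, where inhibitors arrest cells in mitosis. The 41 genes were sorted by known role into 14 mitotic motors, 17 transport motors and 10 motors of cilia or of other function.

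After irradiation 4 of the 41 kinesin genes fell and 0 rose. KIF21B, a motor of neurons and lymphocytes that also restrains microtubule growth, was 3.06-fold lower. The others were mitotic: KIF15, a spindle motor, was 1.56-fold lower, KIF22, a motor that rides on chromosomes, was 1.45-fold lower, and KIF14, a motor of cytokinesis, was 1.32-fold lower. A gene is called changed here at a Benjamini-Hochberg adjusted p under 0.05 in limma over all 18417 genes, and "rose" and "fell" are used of such genes alone. By that rule 14.5% of all genes changed, 8.18% lower and 6.35% higher, so the members' share of 9.76% lower lay near the background. At an unadjusted p under 0.05 the members counted 9 lower and 3 higher. The share of all genes at that p was not counted. However, KIF11, with an unadjusted p of 0.048 in limma, had an adjusted p of 0.163. In the Benjamini-Hochberg adjustment this means that many of all genes also lay under 0.05, so no excess is read from these counts. With 1 array left out, between 3 and 5 members were called lower, and 1 member, KIF27, was called higher without unirradiated replicate 1. Those fits called 1471 to 2184 of all genes in either direction, against 2676 with every array. Subtracting array medians raised the count from 4 to 7, adding KIF16B, KIF2C and KIF3A. Over all genes the same step raised the calls from 2676 to 2884, and the lower share of them from 56.3% to 66.2%. With quantile normalization 3 members were called lower, and the lower share of the calls over all genes was 48.9%.

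**Figure D1:**
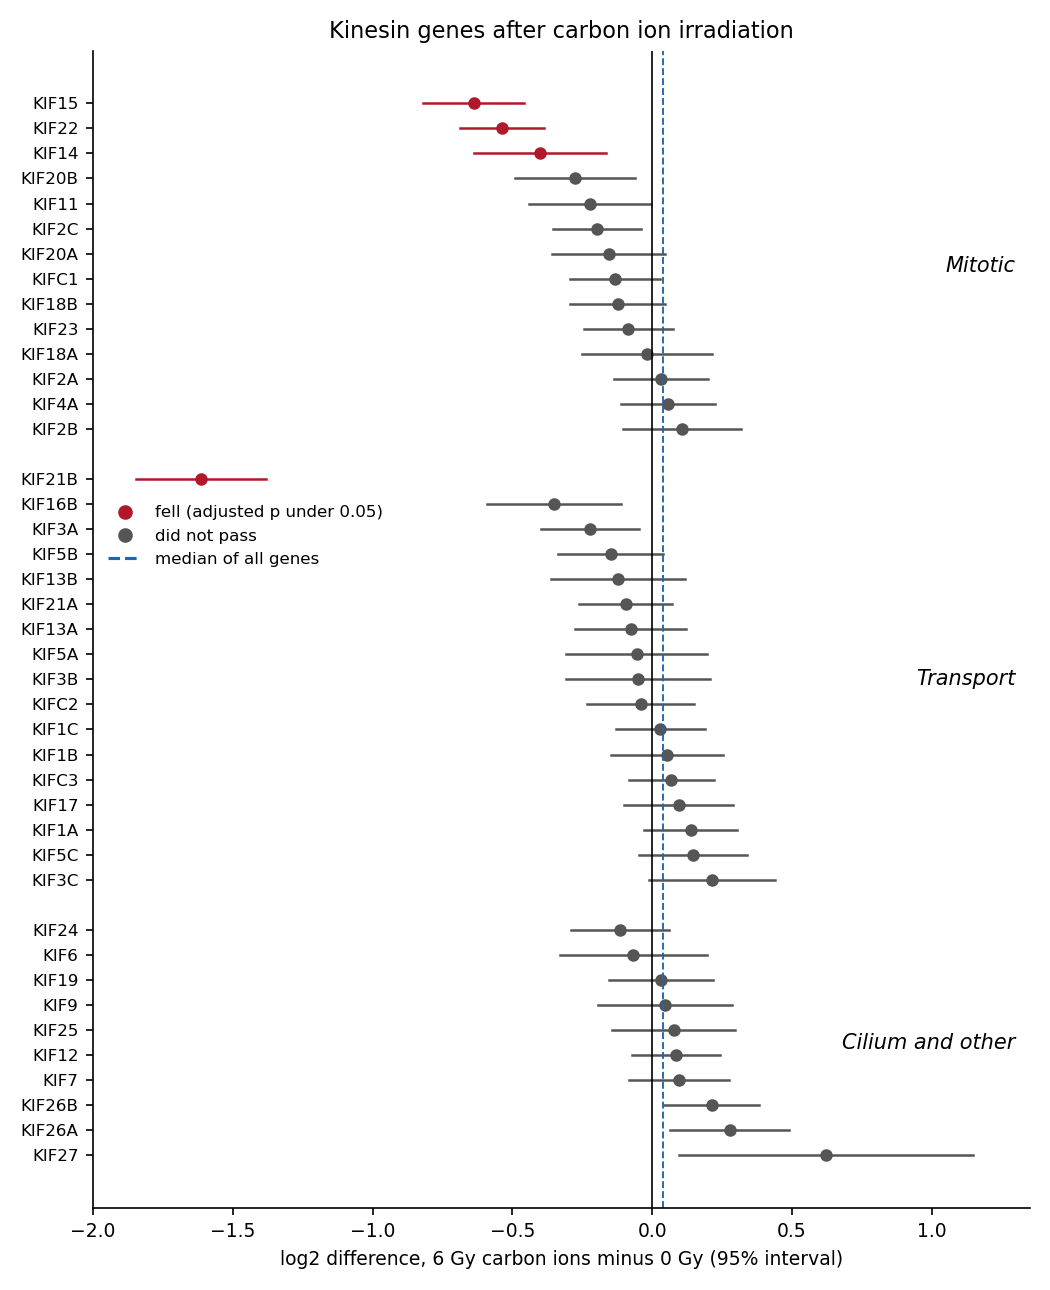
Log2 difference of each of the 41 kinesin genes between 6 Gy and 0 Gy (x axis, in log2 units, points) with its 95% limma interval (lines), by role. KIF21B lies apart at -1.61, and KIF15, KIF22 and KIF14 are the mitotic members that passed; the dashed line marks the median of all genes, 0.04.

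The promoters of the mitotic members are shown first, because genes of this class are known to carry a CCAAT box, bound by NF-Y, beside a cell cycle element (CHR), bound through LIN54 of the MuvB complex. The shown windows run from 100 bases before to 50 bases after the transcription start, 5′ to 3′ on the strand of the gene, from RefSeq on GRCh38.p14. Capitals mark CCAAT or its complement ATTGG, and the CHR-like letters TTTGAA or their complement TTCAAA. The first 3 are the mitotic genes that fell, and the last 3 are examples of mitotic motor genes that did not pass. The last 3 all hold both motifs and do not stand for all that did not pass. KIF2A, KIF2B, KIF2C and KIF20A did not pass either and lack the pair.
KIF14: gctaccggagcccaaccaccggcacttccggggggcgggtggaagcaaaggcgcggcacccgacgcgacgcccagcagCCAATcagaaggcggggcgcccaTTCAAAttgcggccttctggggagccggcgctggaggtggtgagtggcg
KIF15: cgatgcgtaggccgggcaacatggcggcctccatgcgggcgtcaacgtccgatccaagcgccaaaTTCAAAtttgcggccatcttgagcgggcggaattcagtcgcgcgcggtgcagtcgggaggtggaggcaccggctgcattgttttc
KIF22: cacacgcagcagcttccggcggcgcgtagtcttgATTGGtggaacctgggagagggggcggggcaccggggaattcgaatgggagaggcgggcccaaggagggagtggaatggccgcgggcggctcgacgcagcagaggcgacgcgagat
KIF11: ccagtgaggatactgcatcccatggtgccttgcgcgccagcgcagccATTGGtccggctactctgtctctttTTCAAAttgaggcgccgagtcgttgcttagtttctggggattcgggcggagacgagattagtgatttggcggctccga
KIF18A: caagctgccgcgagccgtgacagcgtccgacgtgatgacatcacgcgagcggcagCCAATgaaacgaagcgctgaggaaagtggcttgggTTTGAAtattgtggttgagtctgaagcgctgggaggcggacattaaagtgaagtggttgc
KIF4A: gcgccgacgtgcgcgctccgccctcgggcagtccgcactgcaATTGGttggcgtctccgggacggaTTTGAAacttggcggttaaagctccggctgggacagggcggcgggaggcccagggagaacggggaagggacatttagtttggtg

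The windows lie at chr1:200620702-200620851 (minus strand) for KIF14, chr3:44761694-44761843 (plus strand) for KIF15 and chr16:29790651-29790800 (plus strand) for KIF22, of whose starts the most upstream is shown. They lie at chr10:92593030-92593179 (plus strand) for KIF11, chr11:28108107-28108256 (minus strand) for KIF18A and chrX:70290004-70290153 (plus strand) for KIF4A. The promoter table, which gives 250 bases before and 50 after each start, matched 33 of the 41 members, among them all 14 mitotic ones. KIF21B was not matched. Both CCAAT and TTTGAA, searched on both strands, stood in 8 of the 15 promoters of mitotic members (53.3%), against 1 of 17 promoters of transport members (5.88%, KIF5B) and 5.9% of 35116 promoters in the table. These matches are a description of the letters and not of binding. Of the 8 mitotic genes with both, 1 (KIF14) fell. KIF15 held TTTGAA without CCAAT, and KIF22 held CCAAT at its upstream start without TTTGAA. A further CHR-like form, TTTAAA, was found in 4 of the 15 mitotic promoters (26.7%) and in 12.2% of all promoters, and KIF20A and KIF2C held it near the start.

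KIF21B changed most among the members. Its log2 values were 9.34, 9.54 and 9.12 on the unirradiated arrays and 7.66, 7.68 and 7.81 on the irradiated arrays. The groups were separated by more than 1 log2 unit, with every irradiated array far below every unirradiated one. The log2 difference was -1.61 ± 0.10 (SE, n = 3 per group), with a 95% interval from -1.85 to -1.38 and a limma adjusted p of 2.17e-05. It ranked 19 among all genes ordered from the largest decrease. The call held under the 16 other settings tried, with differences between -1.72 and -1.51.

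KIF21B belongs to the kinesin-4 family, whose members mostly slow or stop microtubule growth, and the other members of the family on the arrays did not pass. KIF21A, its closest paralog, had log2 values of 7.23, 7.38 and 7.31 without and 7.29, 7.21 and 7.12 with irradiation, which overlap, and a difference of -0.09 (95% interval -0.26 to 0.07). KIF4A, a chromosome-bound mitotic motor of the family, differed by 0.06 (-0.11 to 0.22), and KIF7, the ciliary regulator of Hedgehog signalling, by 0.09 (-0.08 to 0.27). KIF27, the fifth measured member, is described with the ciliary motors. The intervals of KIF21A, KIF4A and KIF7 lie above that of KIF21B, but the differences between these genes were not tested.

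KIF15 and KIF11 together hold the spindle poles apart, KIF15 by sliding along bundled spindle fibres. KIF15 had log2 values of 7.26, 7.45 and 7.45 on the unirradiated arrays and 6.79, 6.82 and 6.64 on the irradiated arrays. The groups did not overlap, and the difference of -0.64 ± 0.08 (SE, n = 3 per group) had a limma adjusted p of 9.58e-04. KIF11 differed less, with 8.81, 8.87 and 8.97 against 8.75, 8.80 and 8.44. Its groups did not overlap, but the irradiated arrays were spread widely, with replicate 3 lowest, and the gene did not pass (difference -0.22, 95% interval -0.44 to -0.0027, limma adjusted p 0.163).

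Chromosome-bound motors push chromosome arms away from the poles. KIF22 does so by binding DNA directly, and its log2 values were 9.75, 9.64 and 9.63 without irradiation and 9.12, 9.17 and 9.13 with it. The irradiated arrays lay within 0.05 of one another and well below the unirradiated ones. The difference was -0.54 ± 0.07 (SE, n = 3 per group), with a limma adjusted p of 9.16e-04. A second probe set of KIF22 differed by -0.52. The other chromosome-bound motor, KIF4A, had overlapping values of 8.07, 8.22 and 8.27 against 8.27, 8.19 and 8.28. The probe set that KIF4A shares with KIF4B, outside the membership rule, differed by -0.05.

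Of the motors of the central spindle and of cytokinesis, KIF14 passed. KIF14, which recruits citron kinase to the midbody, had log2 values of 8.23, 8.44 and 8.23 without and 8.03, 8.0 and 7.67 with irradiation. Every irradiated array lay below the unirradiated ones, with replicate 3 lowest. The difference was -0.40 ± 0.11 (SE, n = 3 per group), with a limma adjusted p of 0.0319. This call was lost without unirradiated replicate 1 (adjusted p 0.0646), 2 (0.116) or 3 (0.0586), without irradiated replicate 3 (0.0637), after quantile normalization (0.0545) and in a fit of all probe sets (0.0971).

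KIF20B, a motor that helps the final cut between daughter cells, had values of 7.04, 7.18 and 7.16 against 7.02, 6.89 and 6.65. Its groups did not overlap, but only 0.03 lay between irradiated replicate 1 and the nearest unirradiated array, and it did not pass (difference -0.28, limma adjusted p 0.0852, and 0.0453 without irradiated replicate 1). KIF20A, which carries the chromosomal passenger complex to the central spindle, had values of 9.73, 9.92 and 9.98 against 9.68, 9.86 and 9.62, which overlap. KIF23, the motor of the centralspindlin complex, had 9.35, 9.45 and 9.27 against 9.30, 9.25 and 9.27. Neither passed, and for KIF23 the 95% interval of the log2 difference ran from -0.24 to 0.07.

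The microtubule-shortening motors KIF2A, KIF2B and KIF2C of the kinesin-13 family did not pass. KIF2C, which removes faulty attachments at centromeres, had log2 values of 8.83, 8.91 and 8.89 against 8.59, 8.70 and 8.75. Its groups did not overlap, and the difference of -0.20 had a limma adjusted p of 0.0916, or 0.0417 with array medians subtracted. KIF2A, which works at spindle poles and in interphase cells, had 10.77, 10.90 and 10.94 against 10.82, 10.97 and 10.92. KIF2B, a further member of that family, had 5.64, 5.42 and 5.59 against 5.65, 5.50 and 5.82. The values of KIF2A and KIF2B overlap between the groups.

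KIF18A, which dampens the oscillation of aligned chromosomes, had log2 values of 7.66, 7.77 and 7.74 against 7.66, 7.94 and 7.51. Its irradiated arrays lay on both sides of the unirradiated ones, and the sign of its difference of -0.02 turned under quantile normalization and array weights. KIF18B, which shortens astral microtubules, had 9.29, 9.06 and 9.22 against 9.05, 9.09 and 9.07. KIFC1, a minus-end motor that gathers extra centrosomes, had 8.58, 8.56 and 8.45 against 8.33, 8.39 and 8.47. Both overlap between the groups and did not pass, with differences of -0.12 for KIF18B and -0.13 for KIFC1, and a second probe set of each differed by -0.12.

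**Figure D2:**
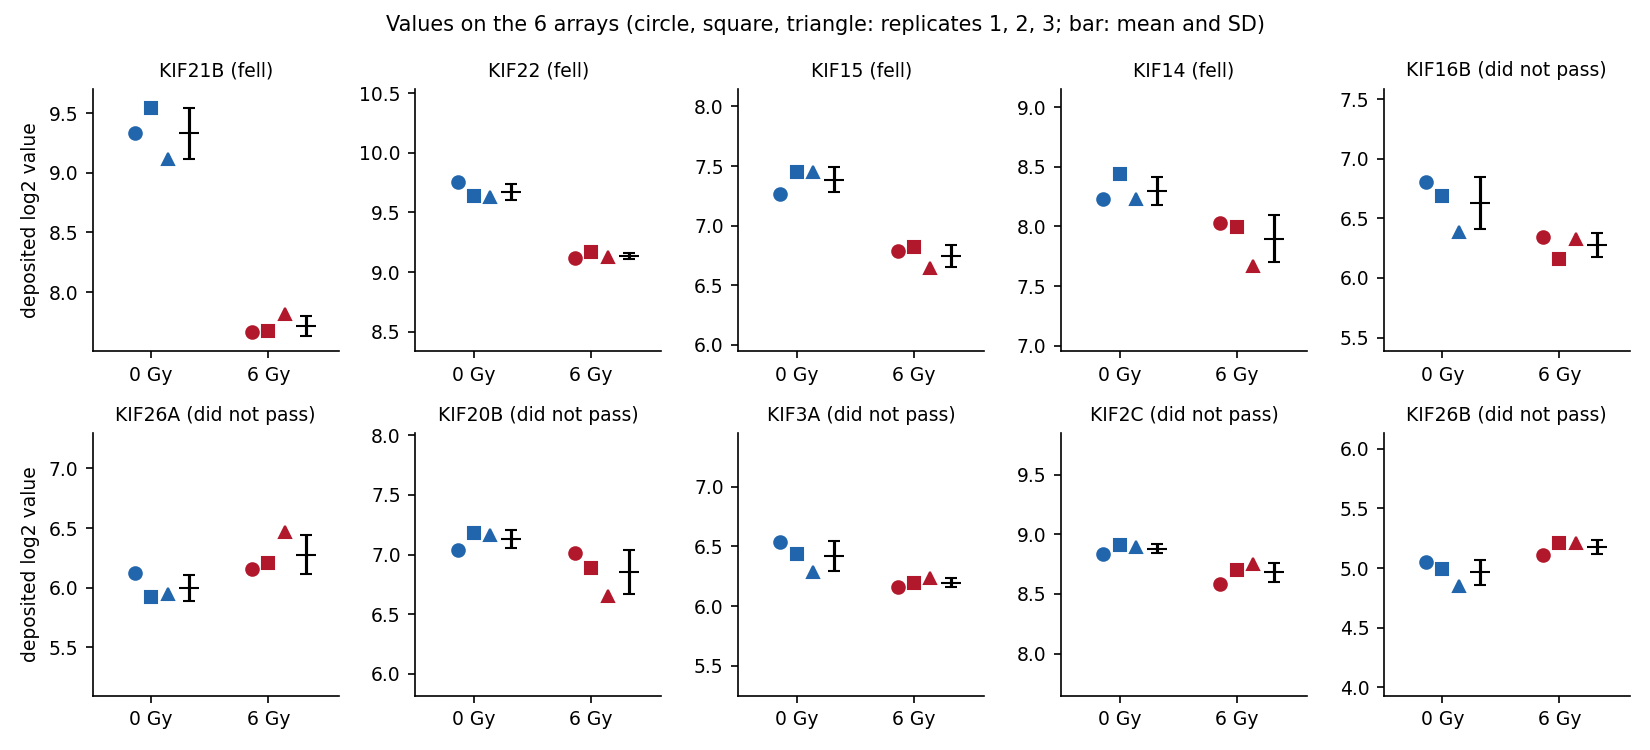
Deposited log2 values (y axis, each panel spanning 2.2 log2 units) on the 3 arrays at 0 Gy (blue) and the 3 at 6 Gy (red) for the 4 genes that fell and the 6 others with an adjusted p under 0.1, in order of adjusted p, with mean and SD in black. The irradiated points lie wholly below the unirradiated ones for the 4 that fell, from 7.66 to 7.81 for KIF21B, and for KIF16B, KIF20B, KIF3A and KIF2C, and wholly above for KIF26A and KIF26B.

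As a group the 14 mitotic members counted 3 lower (21.4%), 0 higher and 11 that did not pass, beside 8.18% lower among all genes. With 1 array left out the number lower was 2 to 4, while 1471 to 2184 of all genes were called in either direction, against 2676 with every array. The median log2 difference was -0.145, against 0.039 over all genes, and 11 of the 14 differences (78.6%) were below 0, against 40.2% of all genes. The irradiated values lay wholly below the unirradiated ones for 6 of the 14 (42.9%), against 15.7% of all genes, and wholly above for 0. The range was narrow at its upper end, at 0.11 for KIF2B, and reached -0.64 for KIF15. In bulk RNA fewer cells in mitosis and less kinesin mRNA in each cell cannot be told apart.

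The arrays did not contribute alike to the mitotic group. Set against each gene's unirradiated mean, the median of the 14 genes was -0.06, 0.03 and 0.03 on unirradiated replicates 1 to 3. It was -0.14, -0.11 and -0.17 on irradiated replicates 1 to 3. All irradiated medians lay below all unirradiated ones. Irradiated replicate 3 was the lowest of the 6 arrays for 6 of the 14 genes, against 13.1% of all genes, and without it the group median was -0.117.

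The 17 transport members, which move cargo outside mitosis, counted 1 lower (5.88%, KIF21B), 0 higher and 16 that did not pass. Among all genes 8.18% were lower and 6.35% higher. The transport median was -0.05 (between -0.057 and 0.006 with an array left out), against 0.039 over all genes. Of the 17 differences 10 (58.8%) were below 0, against 40.2% of all genes. KIF16B, which moves early endosomes, had log2 values of 6.81, 6.69 and 6.39 against 6.34, 6.16 and 6.33. Its groups did not overlap, although unirradiated replicate 3 lay within 0.05 of the nearest irradiated array. The difference of -0.35 had a limma adjusted p of 0.0563, which became 0.0143 without unirradiated replicate 3 and 0.0331 with array medians subtracted.

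Kinesin-2 motors drive transport into cilia and of vesicles as KIF3A paired with KIF3B or KIF3C. KIF3A had log2 values of 6.53, 6.44 and 6.28 against 6.16, 6.19 and 6.23, without overlap, and a difference of -0.22 that did not pass (limma adjusted p 0.0880, and 0.0486 without unirradiated replicate 3). Its partners did not pass either. KIF3B differed by -0.05 (95% interval -0.31 to 0.21) and KIF3C by 0.21 (-0.01 to 0.44). KIF17, the motor of the same family that works alone, differed by 0.09 (-0.10 to 0.29). With unirradiated replicate 3 left out, KIF3A and KIF16B were both called and transport members lower numbered 3 rather than 1. Of all genes 1832 were called in that fit in either direction, against 2676 with every array.

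Conventional kinesin, the main carrier of mitochondria and lysosomes, is built on KIF5B in most tissues and on KIF5A and KIF5C in neurons. KIF5B differed by -0.15 (95% interval -0.34 to 0.04) and KIF5C by 0.15 (-0.05 to 0.34). The 2 probe sets of KIF5A went opposite ways, at -0.06 and 0.13, and neither passed. Kinesin-3 transporters, which carry synaptic vesicle precursors, lysosomes and other membrane cargo, lay between -0.12 for KIF13B and 0.14 for KIF1A apart from KIF16B. Among them KIF1B differed by 0.05 (-0.15 to 0.25), KIF1C by 0.03 (-0.13 to 0.19) and KIF13A by -0.08 (-0.27 to 0.12). The minus-end motors KIFC2 and KIFC3 differed by -0.04 and 0.07. None of these passed, and for each the values of the groups overlapped.

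**Figure D3:**
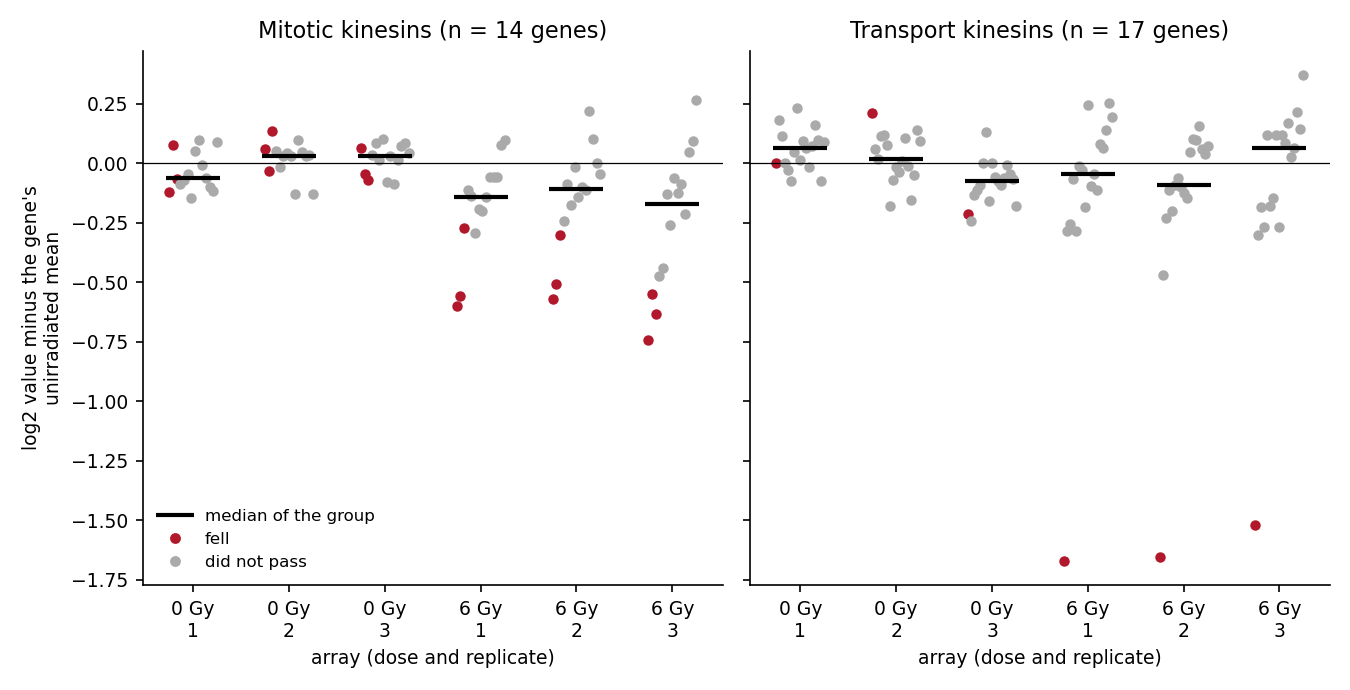
Log2 value of each mitotic (left) and transport (right) kinesin gene minus that gene's unirradiated mean (y axis) on each of the 6 arrays (x axis), with genes that fell in red, the others in grey and the median as a black bar. The mitotic medians are -0.14, -0.11 and -0.17 on the irradiated arrays, while the transport medians lie between -0.09 and 0.07 on all arrays and KIF21B stands alone far below.

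The 10 motors of cilia or other function counted 0 lower and 0 higher in limma, beside 8.18% and 6.35% of all genes. Of the 10, 3 had an unadjusted p under 0.05 in limma, where many of all genes lay too, so no excess is read from this count. The median was 0.081, against 0.039 over all genes. Of the 10 differences 8 were above 0, beside 11008 of all 18417 genes. KIF26A and KIF26B, which lack ATPase activity and act in signalling, did not pass. KIF26A had log2 values of 6.12, 5.93 and 5.95 against 6.16, 6.21 and 6.46, a difference of group means of 0.28 (limma adjusted p 0.0819). KIF26B had 5.05, 5.0 and 4.85 against 5.11, 5.21 and 5.21, a difference of 0.21 (limma adjusted p 0.0938). In both genes every irradiated array lay above the unirradiated ones, by a narrow margin between the nearest arrays. The groups of KIF12 did not overlap either, but 6.02 was both its highest unirradiated and its lowest irradiated value after rounding, and the group means differed by 0.09. KIF27, a relative of KIF7 known for motile cilia, had log2 values of 6.19, 5.62 and 5.04 against 6.07, 6.48 and 6.17. Its unirradiated arrays spread over more than 1 log2 unit, so its difference of 0.62 had a 95% interval from 0.10 to 1.15 and did not pass (limma adjusted p 0.109, and 0.0153 without unirradiated replicate 1). The remaining members, KIF6 and KIF9 of sperm and motile cilia, KIF19, which sets cilium length, KIF24, which acts at centrioles, and KIF25, lay between -0.12 and 0.08. Altogether the groups did not overlap for 12 of the 41 kinesins (29.3%), 9 of them lower, beside 34.7% of all genes.

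CENPE, the kinetochore motor that brings chromosomes to the metaphase plate, is a kinesin by structure whose symbol lies outside the rule. It had log2 values of 7.02, 7.37 and 7.28 without irradiation and 6.25, 6.03 and 6.06 with it, wholly separated, and fell by 1.11 (limma adjusted p 1.50e-04, at most 0.00136 with an array left out). Of the other 21 partners and regulators of mitotic kinesins, 1 fell (4.76%), 3 rose (14.3%) and 17 did not pass, beside 8.18% lower and 6.35% higher among all genes, with a median of -0.002. The groups did not overlap for 10 of the 21 (47.6%), beside 34.7% of all genes. The irradiated values lay above in 7, beside 3494 of all 18417 genes, and below in 3 (14.3%), beside 15.7% of all genes. NUMA1, which gathers microtubules at the poles, fell by 0.44 and kept its call with any array left out, with 8.69, 8.63 and 8.55 against 8.06, 8.22 and 8.28. AURKA, a spindle pole kinase that TPX2 activates, rose by 0.32, with 9.15, 9.34 and 9.42 against 9.66, 9.61 and 9.60. BIRC5, a subunit of the passenger complex carried by KIF20A, rose by 0.26, with 9.02, 8.93 and 8.91 against 9.10, 9.24 and 9.29. TACC3, which crosslinks spindle fibres, rose by 0.25, with 8.28, 8.29 and 8.27 against 8.59, 8.59 and 8.41. Each of these 3 genes had every irradiated array above the unirradiated ones. Of the 6 limma fits that left out an array, AURKA kept its call in the 2 without unirradiated or irradiated replicate 3 (adjusted p otherwise up to 0.0964). BIRC5 kept it in 1, without irradiated replicate 1, and TACC3 in 1, without irradiated replicate 3 (adjusted p otherwise up to 0.135 and 0.133). The BIRC5 call also ended with array weights (0.0652) and the TACC3 call with array medians subtracted (0.0896).

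The next smallest p-values of the list belonged to HMMR, a spindle protein that binds TPX2, at 0.34 (limma adjusted p 0.0599), PLK1, the mitotic kinase, at 0.21 (0.0853), and CKAP5, a microtubule polymerase, at -0.23 (0.0912). HMMR and PLK1 lay wholly above and CKAP5 wholly below their unirradiated values. RACGAP1, the partner of KIF23 in centralspindlin, differed by -0.15, and PRC1, the bundler that KIF4A, KIF14 and KIF20A meet at the midzone, by -0.06. CIT, the citron kinase recruited by KIF14, differed by -0.20, and TPX2, which targets KIF11 and KIF15 to spindle microtubules, by 0.06. INCENP, CDCA8 and AURKB, the companions of BIRC5, differed by -0.04, -0.002 and -0.09. The KIF2C regulators GTSE1 (0.08) and PSRC1 (-0.06) did not pass either.

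Among 18 measured of 19 listed kinesin light chains and cargo adaptors 2 fell (11.1%, beside 8.18% of all genes), 0 rose and 16 did not pass, with a median of -0.079. MADD, the adaptor of KIF1 motors, fell by 0.29, with 8.77, 8.76 and 8.67 against 8.34, 8.47 and 8.52. TRAK1, which links KIF5 motors to mitochondria, fell by 0.29, with 9.05, 9.02 and 8.88 against 8.71, 8.55 and 8.81. The groups did not overlap for either gene. With an array left out MADD was called in 2 of 6 fits, those without unirradiated or irradiated replicate 3, and TRAK1 in 1, without irradiated replicate 3. The TRAK1 call also ended with quantile normalization (adjusted p 0.0809). PLEKHM2, which couples KIF5 to lysosomes, differed by -0.22 and KIFBP, an inhibitor of several kinesins, by 0.32 (limma adjusted p 0.0582 and 0.0621). PLEKHM2 was called lower with array medians subtracted (0.0325). KLC1 (-0.24), KLC2 (0.13) and KIFAP3 (0.02), the cargo-binding subunits of the KIF5 and KIF3 motors, did not pass.

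Dynein, with its cofactor dynactin, walks to the opposite microtubule end. Of 25 measured of 27 listed genes of that machinery 1 fell, 1 rose (8.0% called, beside 14.5% of all genes) and 23 did not pass, with a median of 0.004. HOOK3, an activating adaptor, fell by 0.38, with 7.73, 7.81 and 7.94 against 7.49, 7.53 and 7.31. The light chain DYNLL1 rose by 0.37, with 11.10, 10.88 and 11.23 against 11.50, 11.52 and 11.33. The groups did not overlap for either gene. Leaving out an array kept the HOOK3 call in 5 of 6 fits (0.0541 without unirradiated replicate 3) and the DYNLL1 call in 2, those without unirradiated or irradiated replicate 3. The DYNLL1 call also ended with array medians subtracted (adjusted p 0.0510). DYNC1H1, the motor subunit, differed by 0.21 (limma adjusted p 0.140).

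The 15 genes of the list of NF-Y, MuvB and E2F proteins with their activators included 3 that fell (20%, beside 8.18% of all genes), 0 that rose and 12 that did not pass, with a median of -0.128. RBL2, the p130 pocket protein that makes MuvB a repressor, fell by 0.47, with 8.54, 8.76 and 8.54 against 8.18, 8.19 and 8.08. E2F4, the E2F of that repressor, fell by 0.31, with 9.77, 9.76 and 9.73 against 9.52, 9.42 and 9.40. NFYC, a subunit of NF-Y, fell by 0.28, with 10.20, 10.25 and 10.11 against 9.87, 9.89 and 9.98. The groups of all 3 genes were separate. RBL2 kept its call in all 6 fits with an array left out. E2F4 lost it without unirradiated replicate 1 or 2, and NFYC kept it in the 2 fits without unirradiated or irradiated replicate 3. RBL1, NFYA and NFYB of the same list did not pass, at -0.32, -0.24 and -0.28 (limma adjusted p 0.0508, 0.0548 and 0.115). The activators of the same promoters, MYBL2 (0.17, limma adjusted p 0.121) and FOXM1 (0.15, limma adjusted p 0.175), did not pass either. The irradiated values lay wholly below for 7 of the 15 (46.7%), beside 15.7% of all genes, and wholly above for 2, beside 3494 of all 18417 genes.

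**Figure D4:**
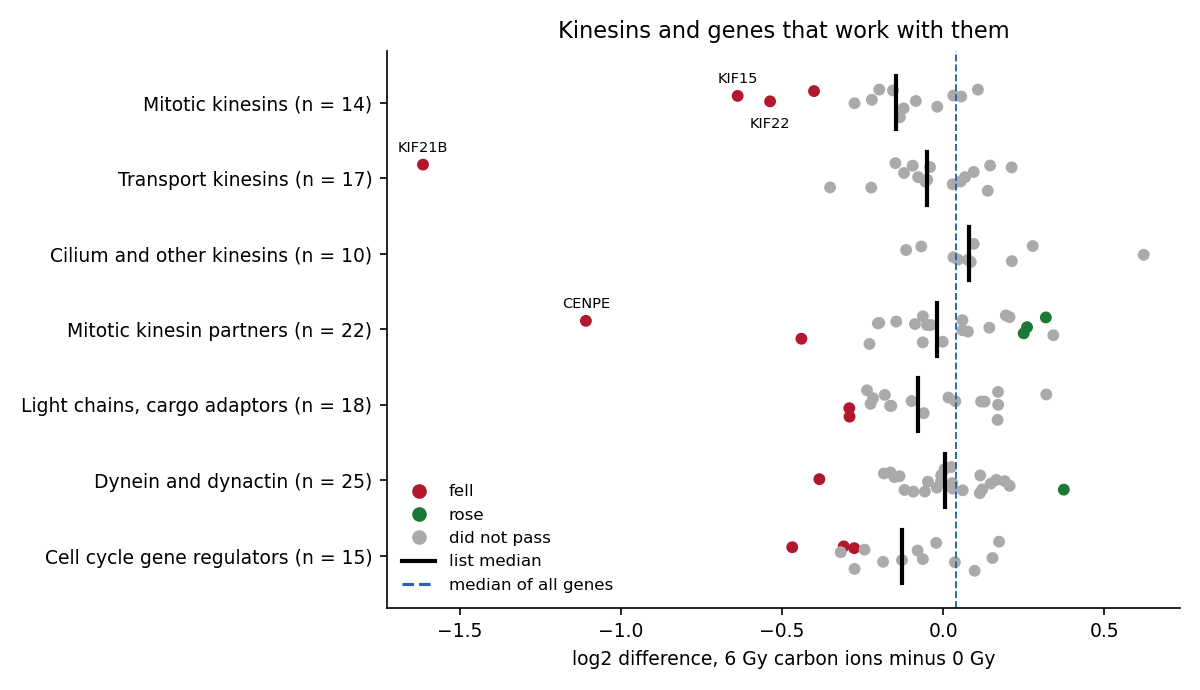
Log2 difference of each gene between 6 Gy and 0 Gy (x axis) in the 3 kinesin groups and 4 related lists, with genes that fell in red, that rose in green and the others in grey. List medians (black bars) run from -0.145 for mitotic kinesins to 0.081 for cilium and other kinesins, and the dashed line is the median of all genes, 0.04.

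The values were read as log2 intensities, with array medians between 5.64 and 5.72 on all 6 arrays. The median SE of a kinesin difference was 0.086. The array means of the marker lists, which rest on different probe sets and are not set against each other, ran from 10.4 to 10.5 for plasma cell, 6.33 to 6.74 for B cell, 4.71 to 5.13 for T cell, 4.09 to 4.41 for monocyte and 5.7 to 6.02 for fibroblast markers. Of the plasma cell markers CD38 and XBP1 fell and SLAMF7 rose from 4.61, 4.75 and 4.53 to 5.05, 5.23 and 5.26, while the other 6, SDC1, IRF4 and PRDM1 among them, did not pass. MS4A1 of 3 B cell markers, and COL1A1 and COL3A1 of 3 fibroblast markers, rose by 0.54, 0.23 and 0.29 (MS4A1 from 8.67, 8.56 and 8.47 to 9.10, 9.19 and 9.05), and 0 of 3 T cell and 0 of 3 monocyte markers passed. With an array left out MS4A1 and SLAMF7 kept their calls, CD38 lost it without unirradiated replicate 2, COL1A1 was called in 0 of 6 fits (and lost its call with array medians subtracted, adjusted p 0.0573), and COL3A1 and XBP1 in 1 each. The part of these markers in the kinesin values was not tested.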

How the data were processed

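Gene expression was measured on 6 one-colour arrays. The authors deposited the values of 33297 probe sets for every array. These deposited values were read as log2 intensities from their range, and folds rest on that base. How they were normalized is not given in the labels or headers used here.

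In the platform's annotation 19460 probe sets carried 1 symbol, 1754 carried more than that and 12083 were unnamed. The brightest probe set per gene gave 18417 genes, with no filter on dim ones. Doses were compared with limma 3.58.1 (R 4.3.3), two-sided, without covariates, adjusted by Benjamini-Hochberg, with 95% intervals. An exact permutation test of 3 arrays against 3 cannot go below p = 0.1, so none was run. The pipeline was tested on simulated data.

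Every kinesin could be named. Array values are given for called and mitotic members. In each related list called genes and up to 3 with the smallest p were named, and CENPE. Array values of related genes, and values of KIF21A, near misses and binding partners, were added after they were seen. Members and lists were chosen with earlier results of these data known, so lists carry counts and medians and no list test. Alternatives were each array left out, a replicate block, no genes from the dimmest 33.3%, quantile normalization, array medians subtracted, weighting arrays, a robust prior following intensity, averaged probe sets, 2 stricter thresholds and, chosen after seeing the data, a fit of every probe set.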

Additional observations from a re-analysis of the deposited data

How the results depend on the processing

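Over 16 alternative settings 22 of the 41 kinesins kept their direction and their side of the threshold; KIF21B and KIF15 were called in each, and KIF22 in each except a 1.5-fold minimum. With the replicate block 4 kinesins were lower (3 mitotic, 1 transport), as without it, and no kinesin's call changed. Among the related genes and markers AURKA, BIRC5, TACC3, DYNLL1, MADD, TRAK1, NFYC, COL1A1, COL3A1 and XBP1 lost theirs (limma adjusted p 0.0582 to 0.0994). Other alternatives ended the calls of TACC3 (0.0896), DYNLL1 (0.0510) and COL1A1 (0.0573) with array medians subtracted, TRAK1 (0.0809) with quantile normalization, BIRC5 (0.0652) with array weights and COL1A1 (0.0544) with a robust prior following intensity. Deviations from the dose means had correlations of -0.042, 0.103 and -0.111 between same-numbered arrays. Between differently numbered arrays they ran from -0.112 to 0.148. With 3 arrays per dose these values cannot show whether the numbers pair the arrays. Called lower were 7 kinesins with array medians subtracted, which moved the median of all genes from 0.039 to 0.009, and 2 (1 mitotic) with a 1.5-fold minimum. With array medians subtracted 66.2% of the calls over all genes were lower, and with quantile normalization 48.9%, against 56.3% in the main fit. Transport kinesins lower numbered 2 without the dimmest 33.3% of genes, with an intensity trend and robust prior, and with array weights, and 3 with array medians subtracted. In the same order 3178 of 12278, then 3237, 2974 and 2884 of all 18417 genes were called in either direction, against 2676 in the main fit. With 1 array left out they numbered 1 to 3, and 0 to 1 kinesins were called higher. The mitotic median ran from -0.174 to -0.117 in those fits. Of all genes 2676 were called, against 1584 without unirradiated replicate 1, 1471 without unirradiated replicate 2, 1077 at an adjusted p under 0.01 and 388 with a 1.5-fold minimum.

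Signs turned for small differences that did not pass: KIF18A with quantile normalization (0.0368) and array weights (0.0045), KIF1C with array medians subtracted (-0.0007), KIF3B with array weights (0.0101) and KIF5A with the mean of all probe sets (0.0349). Leaving out 1 array gave ranges across 0 for KIF2A (-0.0182 to 0.075), KIF4A (-0.0033 to 0.0978), KIF5A (-0.1422 to 0.0601), KIF6 (-0.2196 to 0.0229), KIFC2 (-0.1206 to 0.0121), KIF18A (-0.1372 to 0.0796), KIF1C (-0.0077 to 0.0658), KIF9 (-0.0309 to 0.1704), KIF19 (-0.0509 to 0.0799), KIF1B (-0.0041 to 0.1361), KIF25 (-0.0383 to 0.1396) and KIF3B (-0.1961 to 0.0589). The cause was not tested.

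The table holds no detection calls, so it is unknown which of the 7 kinesins among the dimmest 33.3% of genes (KIF1A, KIF5A, KIF5C, KIF6, KIF9, KIF13A and KIF26B) lay above background.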

Other observations

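KIF14 and KIF21B lie close together on chromosome 1, with 4 protein-coding genes between them in RefSeq order (GRCh38.p14), and values of these were looked at after both had fallen. DDX59, which encodes a helicase, fell by 0.54 in log2 units (limma adjusted p 0.00526) and INAVA, which encodes an adaptor of innate immune signalling, fell by 0.31 (0.0152). GPR25, encoding an orphan receptor, rose by 0.29 (0.0334). CAMSAP2, which protects microtubule minus ends, differed by 0.08 (0.573).

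KIF27 gave opposite signs on different probe sets. The probe set that names KIF27 alone differed by 0.62, while a probe set that also names LOC389765 had log2 values of 6.13, 6.12 and 6.05 without and 5.15, 5.43 and 5.55 with irradiation, a difference of -0.73 (limma adjusted p 0.0123 in a fit of all probe sets). A second shared probe set differed by -0.16 (0.214). Which transcripts these probe sets measure was not tested.

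Across the 41 kinesins the difference and the mean log2 value had a Spearman rho of -0.52, against -0.18 over all 18417 genes. The points share the same 6 arrays. Of the 7 kinesins among the dimmest 33.3% of genes 0 were mitotic. The rho between the difference and the length of the gene was 0.09.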
